A study of Mus musculus with 12 samples.

Results

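Stress granule protein genes are described here in B16F10 cells, a mouse melanoma line. The set was defined by name: it holds 30 genes whose symbols stand in both deposited tables, out of 55421 genes listed there. RNA was sequenced after ribosomal RNA removal from 12 libraries in 4 groups of 3: vector control (VC) cells and cells whose Bub1 gene was disrupted with CRISPR-Cas9 (Bub1KO), each untreated or given 8 Gy of radiation. All groups share the cell line and the culture medium. The sources used here do not give the time between radiation and RNA extraction, the number of Bub1KO clones, or whether replicates were grown apart. A p-value therefore speaks to the spread among these libraries, and that spread may be technical. The series title names stress granules as the place of a cytoplasmic role of BUB1, and the comparisons ask whether the RNA of granule proteins differs with genotype, with radiation or with both.

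Stress granules are cytoplasmic condensates of messenger RNA and protein that form when translation initiation stalls, commonly after phosphorylation of eIF2 alpha by one of the kinases that sense heme, double-stranded RNA, endoplasmic reticulum stress or amino acid shortage. Untranslated RNA binds G3bp1 and G3bp2, whose dimers crosslink it into a network, and partner proteins raise or lower the threshold of that step. Helicases remodel the RNA, initiation factors and poly(A)-binding proteins are carried in with the stalled messages, and the granule dissolves when translation resumes or is cleared by Vcp and the proteasome. These steps act on proteins and are not seen in RNA counts. The counts show how much template for each protein was present.

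The labelled line and genotype were checked first. All 7 melanocyte markers were detected in every group, with summed normalized counts of 386911 to 445913 in the VC libraries and 542890 to 578932 in the Bub1KO libraries. Of 7 leukocyte markers, Adgre1 and Cd3e were at 0 in all 12 libraries, and the sum was at most 32.3 without radiation and 172 to 287 after it. Of 7 fibroblast and endothelial markers, at least 1 was at 0 in every group, and the sum was 81.3 to 129 without radiation and 190 to 303 after it. Of 6 keratinocyte and epithelial markers, Krt18 was at 0 in every group, and the sum was 57.2 to 133. The part of these shifts in the results was not tested. Bub1 itself was at 2932 ± 226 (SD, n = 3) normalized counts in VC and 1662 ± 149 in Bub1KO before radiation, and at 1484 ± 22.8 and 998 ± 117 after it. It was lower in Bub1KO by -0.82 (limma adjusted p = 0.003) and -0.58 (limma adjusted p = 0.00019) on the log2 scale. Libraries held 19380726 to 33087366 reads in genes. The first principal component (60.2% of the variance) split the libraries by radiation and the second (14.1%) by genotype. Replicate 1 of untreated Bub1KO stood apart, with low values for genes such as Fxr2 and Atxn2l, and several results are given with and without it.

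4 promoters are shown because their genes carry the main radiation results: Hnrnpa1 and Tardbp had the largest falls, and Tial1 and Tia1 are sister genes that parted. The stretches come from RefSeq (GRCm38.p6), on the gene's strand, and end upstream of the annotated start. Capitals mark the CCAAT box (CCAAT), the GC box (GGGCGG, read as CCGCCC on the other strand), the CHR element of cell cycle promoters (TTTGAA, read as TTCAAA on the other strand) and the NRF1 core (TGCGCA).
Hnrnpa1, chr15:103240147-103240396, plus strand: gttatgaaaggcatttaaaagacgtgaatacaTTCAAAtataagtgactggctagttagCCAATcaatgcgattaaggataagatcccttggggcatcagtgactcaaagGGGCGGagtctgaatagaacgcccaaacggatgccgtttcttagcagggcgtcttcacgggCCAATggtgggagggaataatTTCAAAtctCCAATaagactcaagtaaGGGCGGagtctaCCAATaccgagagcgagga
Tardbp, chr4:148627020-148627246, minus strand: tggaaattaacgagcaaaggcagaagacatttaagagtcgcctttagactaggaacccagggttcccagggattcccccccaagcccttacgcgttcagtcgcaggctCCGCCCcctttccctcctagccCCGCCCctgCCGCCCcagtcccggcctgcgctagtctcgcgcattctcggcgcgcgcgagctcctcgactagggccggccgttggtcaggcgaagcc
Tial1, chr7:128461718-128461923, minus strand: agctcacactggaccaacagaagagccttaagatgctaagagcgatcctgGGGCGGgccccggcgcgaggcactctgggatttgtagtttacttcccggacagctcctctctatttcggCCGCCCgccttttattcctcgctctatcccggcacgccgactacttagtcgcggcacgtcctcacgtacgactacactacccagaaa
Tia1, chr6:86403969-86404218, plus strand: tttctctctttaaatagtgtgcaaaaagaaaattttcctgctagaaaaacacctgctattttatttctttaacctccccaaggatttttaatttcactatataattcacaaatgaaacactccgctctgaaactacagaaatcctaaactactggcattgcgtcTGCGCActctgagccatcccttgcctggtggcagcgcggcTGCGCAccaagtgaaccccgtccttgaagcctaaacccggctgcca

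Both strands of the 250 bases before the RefSeq start were searched for exact matches, and none of the matches in these promoters overlapped another. For some members that start is not the start of the gene as counted. The G3bp2 window (chr5:92137726-92137975) lies away from the counted gene, which ends at 92083719. The Pabpc4 window (chr4:123282661-123282910) lies inside the counted gene (123262351 to 123298925). The windows of Eif4g1, Lsm14a, Caprin1 and Atxn2 also lie inside their counted genes. Some other windows, such as those of Ubap2l and Pum2, overlap the counted gene in part. All of these stay in the shares below, which are therefore not shares of sequence upstream of the counted genes alone. The Hnrnpa1 window held 4 CCAAT boxes, 2 GC boxes and 2 CHR elements, the Tardbp window 3 GC boxes, the Tial1 window 2 GC boxes and the Tia1 window 2 NRF1 cores and no GC box. RefSeq promoters were matched for 26 of the 30 genes; Ddx6, Eif4g2, Pabpc1 and Zfand1 were not matched. A GC box stood in 20 of the 26, against 32.9% of 27025 promoters of the same length, and a CCAAT box in 5 of 26, against 34.5%. The 27025 promoters were not matched to the members in expression level or GC content. The CHR element stood in Hnrnpa1 alone of the 26, against 16.3% of all. The NRF1 core was in 5 of 26 (6.66% of all), the E-box CACGTG in 6 (6.05%), the cyclic AMP response motif TGACGT in 6 (6.56%) and the ETS site CCGGAAG in 3 (7.05%). Among genes that fell with radiation in both genotypes the GC box stood in 15 of 19 matched promoters, and among the other members in 5 of 7. A match is a run of letters and was not tested as a binding site.

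All 30 genes passed the filter on low values (at least 10 normalized counts in at least 3 libraries), which 14721 genes of the tables passed. Levels between genes were compared as normalized counts per kilobase of merged exons in untreated VC. The members' median was 567, against 107 for all tested genes with a known length, and 29 of the 30 lay above that median. Cnbp, a zinc-knuckle protein that binds G-rich messages, was at 8678 ± 302 per kilobase and Pabpc1, the main cytoplasmic poly(A)-binding protein, at 8674 ± 128, and these levels overlapped. Ybx1, a cold-shock protein that packages messages, followed at 7835 ± 275 and Eif3b, a core subunit of the eIF3 complex, at 7085 ± 413. Of the nucleators, Caprin1 (1974 ± 135) and G3bp1 (1858 ± 10.3) overlapped and were the highest per kilobase, while G3bp2 was at 353 ± 11.2, Tial1 at 379 ± 3.67 and Tia1 at 134 ± 5.56. Merged exons cover every annotated transcript, 15750 bases for Tia1 and 6903 for Tial1, whose normalized counts were 2111 ± 87.5 and 2613 ± 25.3. The order per kilobase therefore depends on the annotation. Zfand1, which recruits Vcp and the proteasome to granules, was the lowest at 35.2 ± 0.579. The members' longest transcripts had a lower median GC content than all tested genes (43.8% against 49.4%).

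**Figure D1:**
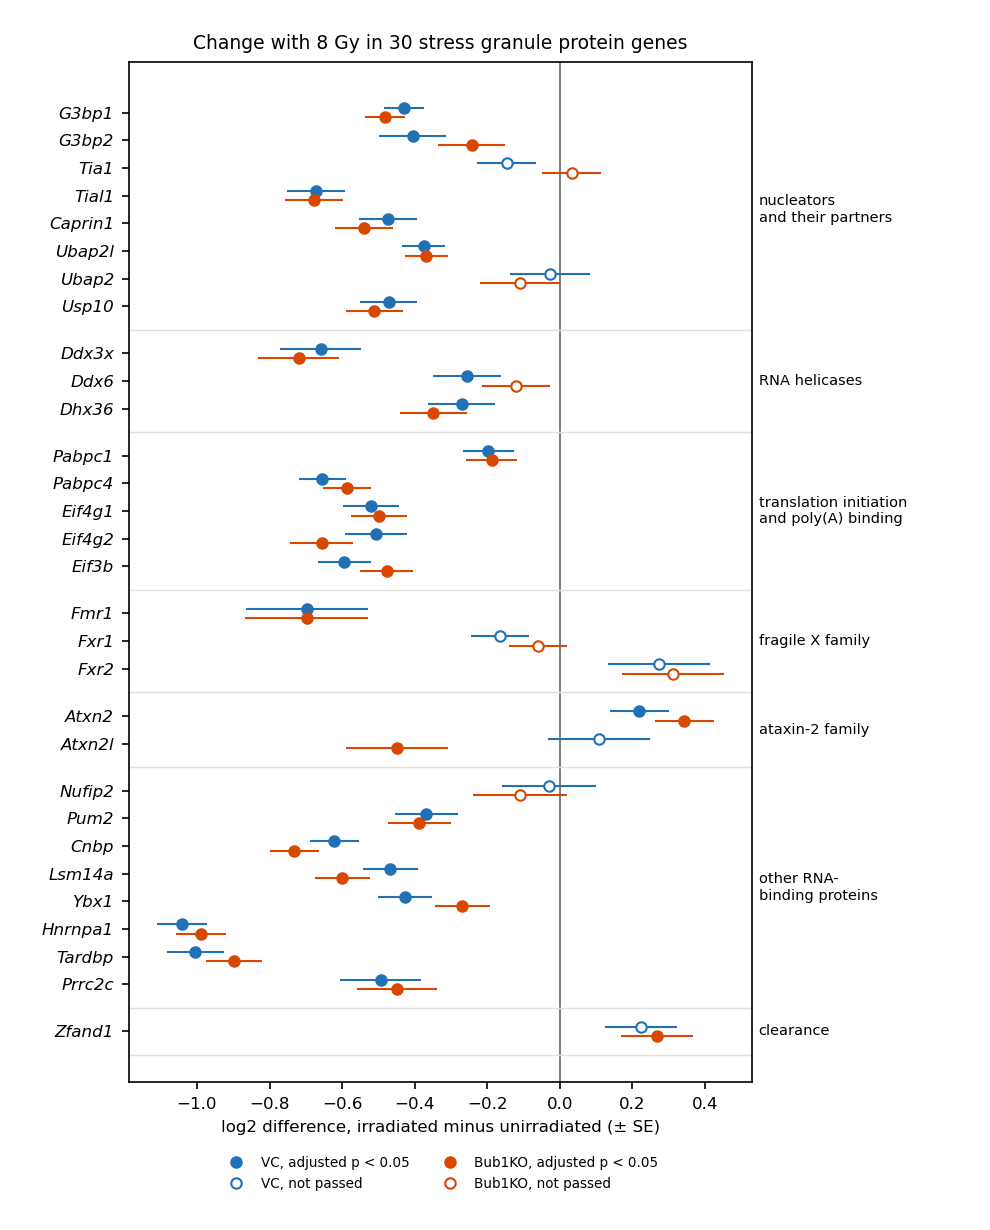
Log2 difference, irradiated minus unirradiated, with its standard error for each of the 30 genes, in VC (blue) and Bub1KO (orange); filled points passed an adjusted p of 0.05 (limma). Most points lie left of 0 in both genotypes, down to -1.04 for Hnrnpa1 in VC, while Atxn2, Fxr2 and Zfand1 lie to the right.

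Radiation lowered the RNA of most stress granule protein genes in both genotypes. In VC 22 of 30 fell, 1 rose (Atxn2) and 7 did not pass, and in Bub1KO 22 fell, 2 rose (Atxn2 and Zfand1) and 6 did not pass (limma on log2(normalized count + 1), Benjamini-Hochberg adjusted p under 0.05 over all genes). Radiation changed much of the transcriptome: 53.4% of all tested genes passed in VC, 27.6% higher and 25.8% lower, and 49.4% in Bub1KO, 25.4% higher and 23.9% lower. The members' share that fell was 73.3% in each genotype. Scaled to the upper quartile instead, the Bub1KO calls over all genes were 4571 higher and 2614 lower, against 3746 and 3523, and 19 members fell and 3 rose in each genotype. Their median log2 difference was -0.43 in VC and -0.45 in Bub1KO, against 0.017 and 0.028 for all tested genes. The groups of 3 did not overlap for 26 members in VC, against 65.4% of all genes, and for 23 in Bub1KO, against 54.9%. These are relative amounts of RNA in bulk cultures, in which fewer cells of a kind and less RNA per cell cannot be told apart.

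The same 21 genes fell in both genotypes. The effects of radiation in VC and Bub1KO share no library, and over the 30 genes they had a Pearson r of 0.913 and a Spearman rho of 0.917, against 0.850 and 0.821 over all tested genes, as a description across genes. The median gap between the genotypes was 0.073 on the log2 scale. Without replicate 1 of untreated Bub1KO the count in Bub1KO was 21 lower and 1 higher, and the count in VC, whose spread uses all libraries, was 23 lower and 2 higher.

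The largest falls were in Hnrnpa1 and Tardbp, nuclear RNA-binding proteins with prion-like tails that regulate splicing, shuttle to the cytoplasm and join granules under stress. Hnrnpa1 (ENSMUSG00000046434.16, GRCm38 as all positions here, chromosome 15, 103240432 to 103246692) was counted as follows, in normalized counts: VC libraries read 17637, 18798 and 18452 before radiation and 9143, 8586 and 8934 after it, and Bub1KO libraries 18596, 15994 and 16464 before and 8513, 8407 and 8755 after. Every irradiated library was below every unirradiated one, and irradiated means were 48.6% of untreated in VC and 50.3% in Bub1KO. The difference was -1.04 (SE 0.0685, limma adjusted p = 6.79e-08) in VC and -0.99 (SE 0.0685, limma adjusted p = 1.01e-07) in Bub1KO. Of 9 other genes with a near-identical stretch of Hnrnpa1, the counts summed to 0.935% of its own. Tardbp (ENSMUSG00000041459.15, chromosome 4, 148612382 to 148627019) encodes TDP-43, and its VC libraries read 12948, 14442 and 13715 before radiation and 6871, 6607 and 6998 after it, and Bub1KO libraries 13879.9, 11536 and 11835 before and 6895, 6304 and 6743 after. Again no irradiated library reached an unirradiated one. Irradiated means were 49.8% of untreated in VC (SE of the log2 difference 0.0781, limma adjusted p = 2.83e-07) and 53.5% in Bub1KO (log2 difference -0.90, limma adjusted p = 7.46e-07). Masp2, on the opposite strand, shares 23.3% of the exon bases of Tardbp, and its own mean was 1.26.

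The next smallest p-values belonged to Pabpc4, a poly(A)-binding protein induced in activated T cells, and Cnbp. For Pabpc4, VC libraries read 2007, 2042 and 2169.8 before radiation and 1356, 1326 and 1268 after it, and Bub1KO libraries 1740.1, 1854 and 1839.7 before and 1249.6, 1192 and 1178 after. It fell by 0.65 in VC and by 0.59 in Bub1KO (limma adjusted p = 2.62e-06 and 7.29e-06). Other genes with a near-identical stretch of Pabpc4 held 2.70% of its count. For Cnbp, VC libraries read 26091, 25582 and 27364 before radiation and 17773, 17233 and 16385 after it, and Bub1KO libraries 26323, 22926 and 24138 before and 14743, 14398 and 14989.6 after. The irradiated groups lay below the unirradiated ones with no overlap in both genes. Cnbp fell by 0.62 in VC (limma adjusted p = 5.91e-06) and by 0.73 in Bub1KO (limma adjusted p = 1.45e-06).

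**Figure D2:**
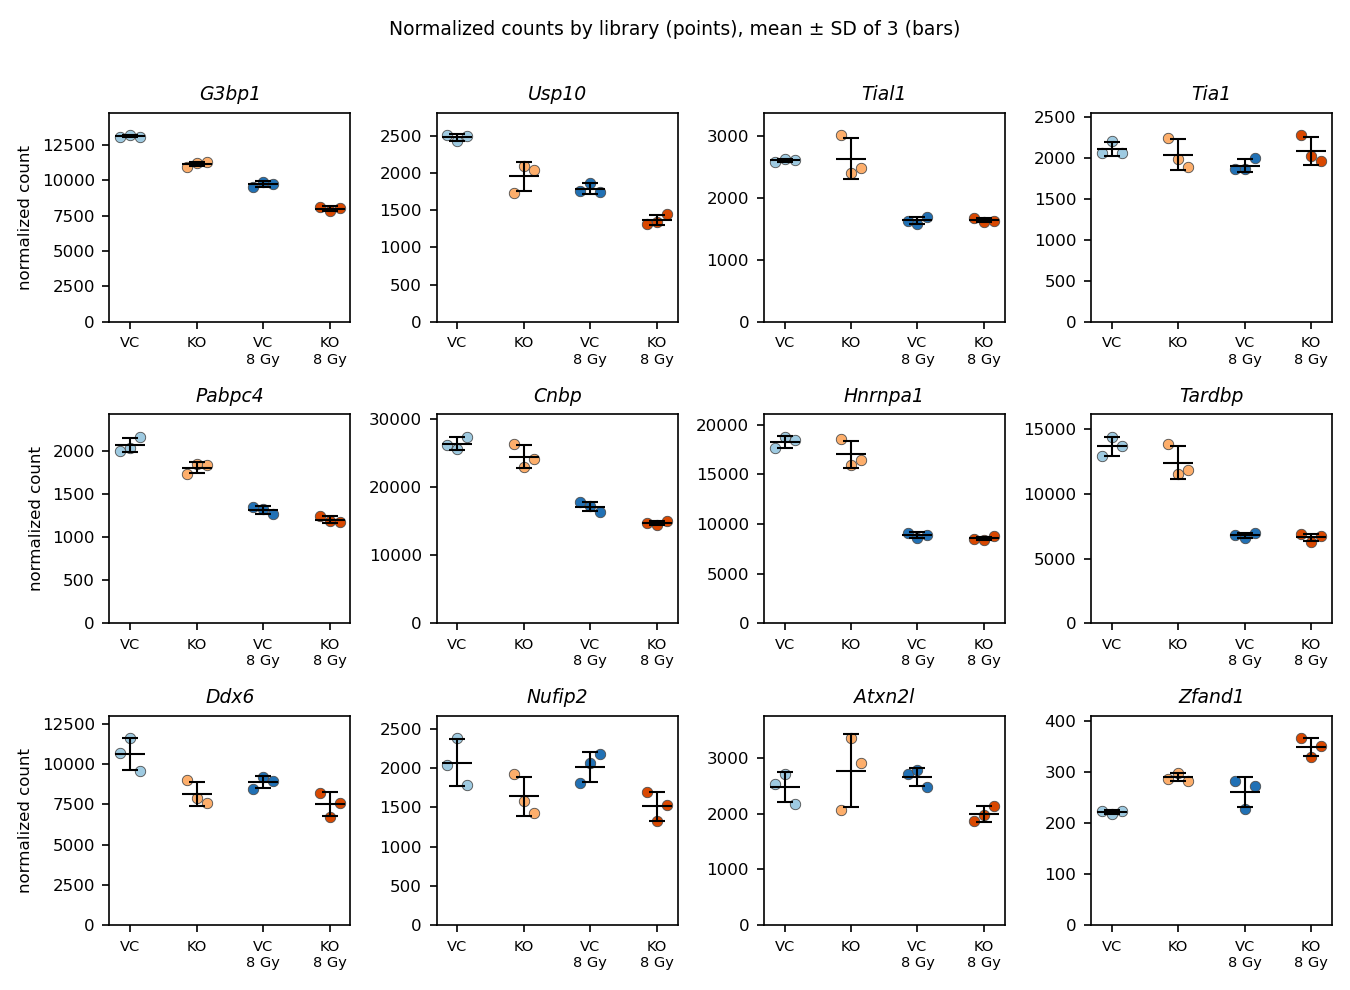
Normalized counts of 12 of the genes in each library (points) with the mean and SD of 3 libraries (bars), for VC and Bub1KO (KO) untreated and after 8 Gy; each axis starts at 0. Hnrnpa1 and Tardbp sit near 50% of their untreated level after 8 Gy, G3bp1 and Usp10 step down with each factor, and Zfand1 is highest in irradiated Bub1KO.

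Among the 8 nucleators and their partners, 6 fell in VC and the same 6 in Bub1KO. G3bp1 (ENSMUSG00000018583.5, chromosome 11, 55469685 to 55504838) is the main scaffold of the granule, and its VC libraries read 13075, 13206 and 13086 before radiation and 9550.1, 9917 and 9783 after it, and Bub1KO libraries 10964, 11244 and 11273 before and 8128, 7809.5 and 8044 after. The 4 groups of G3bp1 were fully separate, and it fell with radiation by 0.43 in VC (SE 0.0553, limma adjusted p = 2.48e-05) and by 0.48 in Bub1KO (limma adjusted p = 9.04e-06). Caprin1, which binds G3bp1 and favours condensation, was at 71.9% of its untreated mean in VC and 68.8% in Bub1KO. Usp10, a deubiquitinase that binds the same pocket of G3bp1 and opposes condensation, was at 72.1% and 70.0%. Ubap2l, which promotes G3bp assembly, was at 77.1% and 77.5%. Tia1 and Ubap2 passed in neither genotype. When replicate 1 of untreated Bub1KO was left out, however, Ubap2 passed in Bub1KO at -0.27 instead of -0.11 (limma adjusted p = 0.00529), and with the GC trend removed Ubap2 passed there at -0.27 (limma adjusted p = 0.0075) and Tia1 at 0.20 (limma adjusted p = 0.0122).

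G3bp2 fell by 0.41 in VC (limma adjusted p = 0.00208) and by 0.24 in Bub1KO (limma adjusted p = 0.0406). Its VC libraries read 3102, 3128 and 2948 before radiation and 2184, 2255 and 2498 after it, and Bub1KO libraries 3084, 2683 and 2497 before and 2308, 2113 and 2555 after. The Bub1KO groups overlapped, and that call was lost in 12 of the alternative fits, among them the one without replicate 1 of untreated Bub1KO (-0.16, limma adjusted p = 0.114). A gene on the opposite strand, Gm26582, shares 23.7% of the exon bases of G3bp2, and the strand setting of the counting is not given in the sources used here.

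All 3 helicases fell in VC and 2 in Bub1KO. Ddx3x, a DEAD-box helicase that helps translate structured messages, was at 63.0% of its untreated mean in VC and 60.6% in Bub1KO (11429 ± 1415 to 7205 ± 341, and 9578 ± 1333 to 5802 ± 644). Dhx36, which unwinds G-quadruplexes, was at 82.7% and 78.4%. Ddx6, the helicase of processing bodies and of translational repression, was at 83.5% in VC (limma adjusted p = 0.0329) and at 92.0% in Bub1KO (limma adjusted p = 0.306), and the difference between the genotypes did not pass (interaction 0.14, limma adjusted p = 0.741). The VC calls of Ddx6 and Dhx36 were lost in 7 and 5 alternative fits, among them those scaled to the upper quartile, with the GC trend removed, and without untreated VC replicate 2 or irradiated VC replicate 1 or 3.

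All 5 translation initiation and poly(A)-binding genes fell in both genotypes. Eif4g1, the scaffold that joins the cap-binding protein to the ribosome, was at 69.8% of its untreated mean in VC and 70.9% in Bub1KO. Eif4g2, a relative without the site for the cap-binding protein, was at 70.3% and 63.4%, and Eif3b at 66.3% and 71.8%. Pabpc1 went from 56731 ± 837 to 49513 ± 2654 normalized counts in VC and from 50504 ± 3049 to 44298 ± 607 in Bub1KO. That is the smallest called fall of the 30 genes in both genotypes (-0.20 and -0.19, limma adjusted p = 0.029 and 0.0394). The Pabpc1 calls were lost in 8 alternative fits in VC and 13 in Bub1KO, among the latter the one without replicate 1 of untreated Bub1KO (limma adjusted p = 0.0808).

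Of the fragile X family, translational regulators that bind polyribosomes, only Fmr1 passed in either genotype, at 60.9% of its untreated mean in VC and 61.8% in Bub1KO, with limma adjusted p = 0.00331 and 0.00357. Fxr1 was at 89.1% and 95.7% (it passed in VC without replicate 1 of untreated Bub1KO, limma adjusted p = 0.0342), and Fxr2 at 120.9% and 121.3% with limma adjusted p = 0.115 and 0.0792. The irradiated Bub1KO mean of Fxr2 was 105.9% of untreated when replicate 1 of untreated Bub1KO was left out, whose normalized count was 1861 against 2982 and 3039. In VC the Fxr2 call was gained without replicate 1 of untreated Bub1KO (limma adjusted p = 0.000489), at the same difference of 0.27, because the spread is estimated over all libraries. In the ataxin-2 family, RNA-binding proteins that partner with poly(A)-binding protein, Atxn2 rose by 0.22 in VC (SE 0.0815, limma adjusted p = 0.0355) and by 0.34 in Bub1KO (limma adjusted p = 0.00322). The VC call of Atxn2 was lost in 8 alternative fits, 5 of them leaving out a VC library. Atxn2l is described with the interaction.

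Of the 8 other RNA-binding proteins, 7 fell in each genotype, and Nufip2, a partner of Fmr1, was at 97.6% of its untreated mean in VC and 92.4% in Bub1KO. Besides Hnrnpa1, Tardbp and Cnbp these were Lsm14a, a repressor shared with processing bodies (72.3% and 66.1%), Prrc2c, a large protein that aids initiation (71.1% and 73.4%), Pum2, which silences messages with a Pumilio site (77.4% and 76.1%), and Ybx1. Of Ybx1, VC libraries read 19766, 19168 and 20557 before radiation and 15189.5, 13932 and 15157 after it, and Bub1KO libraries 15918, 18064 and 18669 before and 15104, 14806 and 13738 after. It fell by 0.43 in VC and by 0.27 in Bub1KO (limma adjusted p = 0.000329 and 0.00894). The Bub1KO call of Ybx1 was lost when values were scaled to the upper quartile (limma adjusted p = 0.0779).

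**Figure D3:**
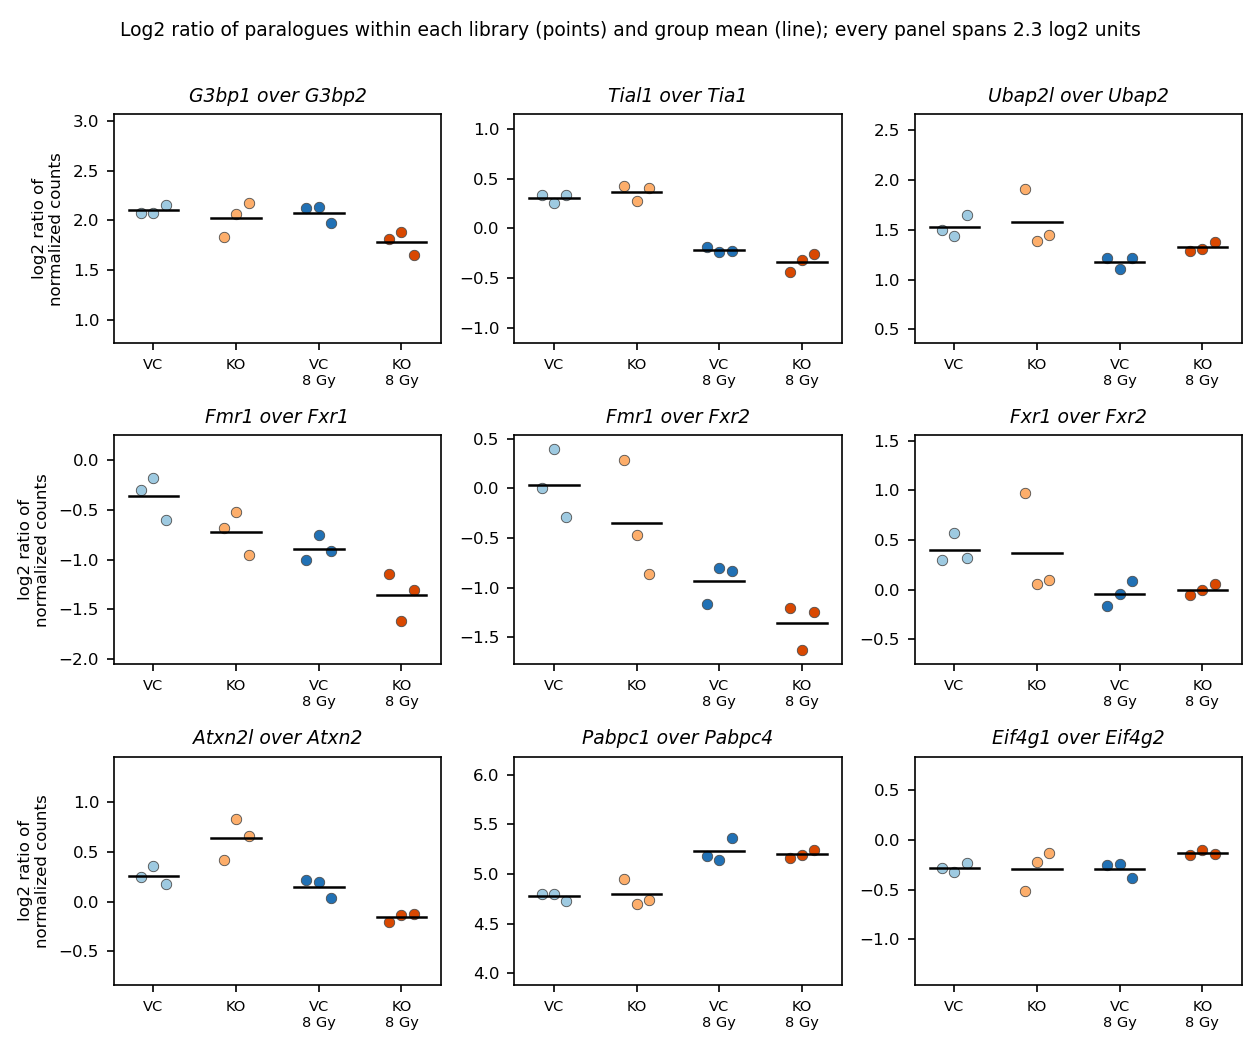
Log2 ratio of normalized counts of 2 related genes within each library (points) with the group mean (line), for 9 pairs; every panel spans 2.3 log2 units. Tial1 over Tia1 lies between 0.254 and 0.428 in the 6 unirradiated libraries and between -0.439 and -0.186 in the 6 irradiated ones, while Eif4g1 over Eif4g2 overlaps between treatments.

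In 7 of 9 pairs of related genes the balance within a library changed with radiation. Of the 7, Fxr1 with Fxr2 kept no direction when a GC trend was removed. Its call and those of Ubap2l with Ubap2 and Atxn2l with Atxn2 were lost without certain single libraries. The ratios among Fmr1, Fxr1 and Fxr2 share genes and are not independent. How often other gene pairs changed their ratio was not computed, where 53.4% of all tested genes passed in VC and 49.4% in Bub1KO. The log2 ratio of 2 relatives within a library needs no scaling between libraries, and its change with radiation was tested by exact permutation of the treatment labels within genotype (400 arrangements, two-sided, smallest possible p 0.005). This test was chosen after the values were seen, and p-values were adjusted over 18 tests (9 pairs, radiation and genotype). A ratio shows unequal change, not which gene moved.

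Tial1 and Tia1, RNA-binding proteins with prion-like tails that can seed granules, have nearly the same GC content (41.3% and 41.2% in the longest transcript). For Tial1, VC libraries read 2589, 2639 and 2612 before radiation and 1635, 1587 and 1702 after it, and Bub1KO libraries 3022, 2415 and 2488 before and 1681, 1616 and 1634 after. For Tia1, VC libraries read 2056, 2212 and 2065 before radiation and 1859, 1866 and 1996 after it, and Bub1KO libraries 2245, 1992 and 1885 before and 2278, 2023 and 1958 after. The log2 ratio of the counts was above 0 in all 6 unirradiated libraries and below 0 in all 6 irradiated ones; the genes differ in length, so this is not an order of their levels. The log2 ratio changed by -0.62 (exact permutation p = 0.005, adjusted 0.018), and by the same -0.62 after a GC trend was removed from each library.

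The ratio of Fmr1 to Fxr1 changed by -0.58 with radiation (exact permutation p = 0.005, adjusted 0.018), and by -0.59 with the GC trend removed. Fmr1 to Fxr2 changed by -0.99 (exact permutation p = 0.005, adjusted 0.018), which became -0.53 with the GC trend removed; their longest transcripts have 39.2% and 58.5% GC. Fxr1 to Fxr2 changed by -0.41 (exact permutation p = 0.01, adjusted 0.0257) but by 0.055 with the GC trend removed, so its direction differed with that choice. Its call was also lost without any of the 3 irradiated Bub1KO libraries (adjusted p 0.0563 to 0.0788). Fmr1 was lower relative to Fxr1 and to Fxr2 in both settings, and no direction can be given within the Fxr1 and Fxr2 pair.

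Pabpc1 to Pabpc4 changed by 0.43 with radiation (exact permutation p = 0.005, adjusted 0.018), and by 0.64 with the GC trend removed. Ubap2l to Ubap2 changed by -0.30 (exact permutation p = 0.005, adjusted 0.018), which was lost without replicate 1 or 2 of irradiated Bub1KO (adjusted p = 0.0514). Atxn2l to Atxn2 changed by -0.45 (exact permutation p = 0.015, adjusted 0.0338), as -0.11 in VC and -0.79 in Bub1KO, and the call was lost without replicate 1 or 2 of untreated VC or replicate 3 of irradiated VC (adjusted p = 0.0675). G3bp1 to G3bp2 (-0.13, exact permutation p = 0.135) and Eif4g1 to Eif4g2 (0.07, exact permutation p = 0.355) did not pass. With the GC trend removed both passed, G3bp1 to G3bp2 at -0.23 (adjusted p = 0.018 by exact permutation) and Eif4g1 to Eif4g2, with its direction turned, at -0.16 (adjusted p = 0.015 by exact permutation). Between genotypes 1 ratio passed, Fmr1 to Fxr1, lower in Bub1KO by -0.41 (exact permutation p = 0.01, adjusted 0.0257), and it was lost without replicate 2 of untreated VC or replicate 3 of irradiated VC (adjusted p = 0.0514). Other genotype ratios passed under single alternatives: Fmr1 to Fxr2 and Eif4g1 to Eif4g2 without replicate 1 of untreated Bub1KO (adjusted p = 0.027 by exact permutation), G3bp1 to G3bp2 without replicate 3 of untreated Bub1KO (adjusted p = 0.015 by exact permutation), and Fmr1 to Fxr2 and G3bp1 to G3bp2 with the GC trend removed (adjusted p = 0.015 and 0.0409 by exact permutation).

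**Figure D4:**
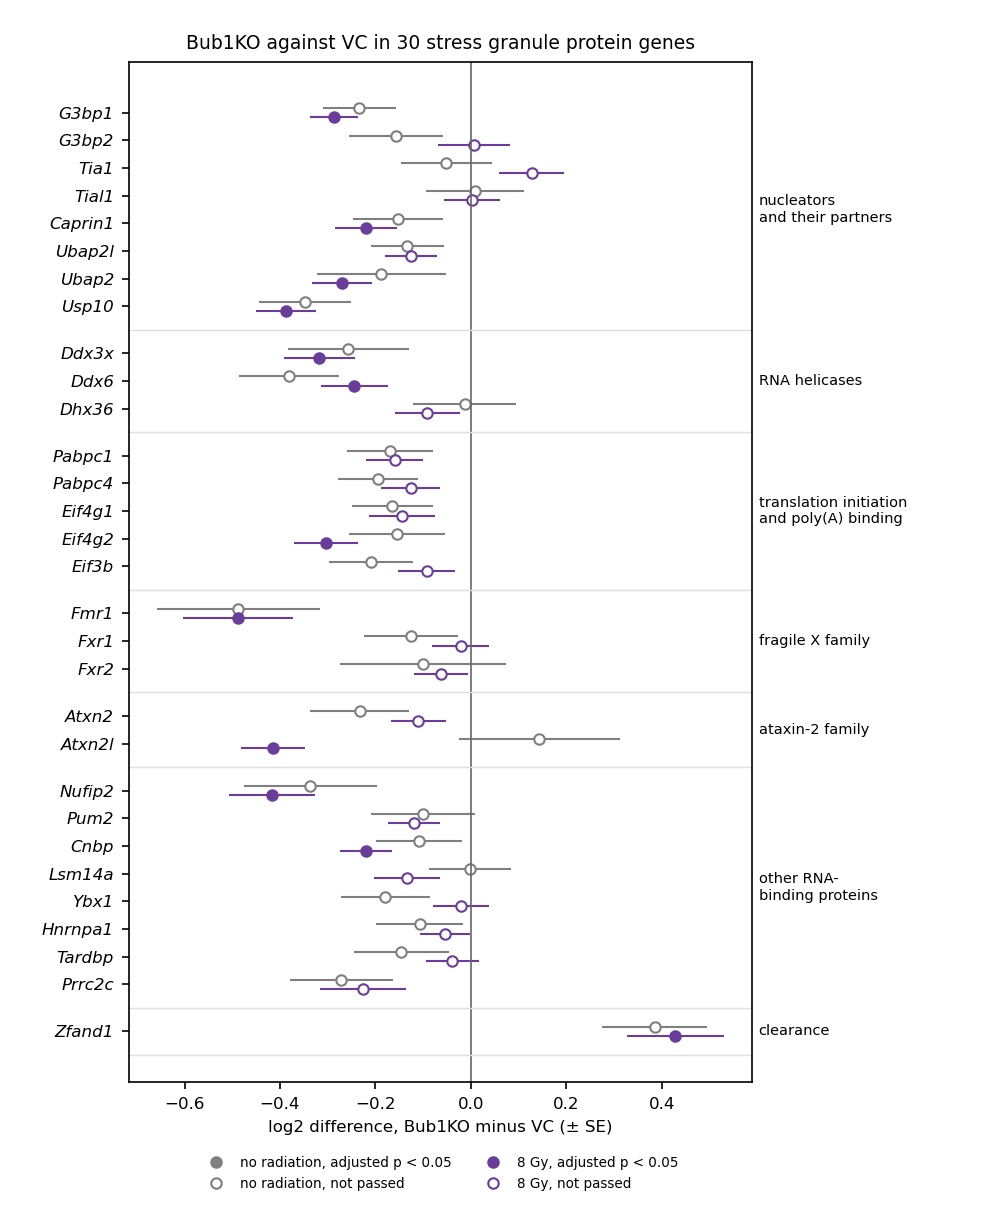
Log2 difference, Bub1KO minus VC, with its standard error for each of the 30 genes, without radiation (grey) and after 8 Gy (purple); filled points passed an adjusted p of 0.05 (limma). After 8 Gy the 11 filled points on the left reach -0.49 for Fmr1, and Zfand1 stands alone on the right at 0.43; no grey point is filled.

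Between the genotypes, 11 of 30 members were called lower in Bub1KO after radiation and 1 higher, and none was called without radiation; whether radiation changes the genotype difference is tested further on. Without radiation 0 of 30 genes passed in limma, against 4.01% of all tested genes (2.31% higher and 1.71% lower). At an unadjusted p under 0.05 there were 9, and edgeR called 0 and DESeq2 1, which was lower. The median difference was -0.16, against -0.0084 for all tested genes, and 27 of 30 were below 0. Without replicate 1 of untreated Bub1KO, 11 passed, 9 lower and 2 higher, against 18.6% of all genes. The count also moved with that library kept in. It was 5 with the GC trend removed (1743 genes in all), 4 with all 12 libraries in the fit (1769) and 1 with no filter (329). The authors' deposited table calls 7 of the 30 in this comparison, 6 lower and 1 higher, against 13.1% of its genes with an adjusted p. Groups did not overlap for 12 of the 30, against 25.6% of all genes.

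After 8 Gy, 12 of 30 passed, 11 lower in Bub1KO and 1 higher, against 30.7% of all tested genes (14.3% higher and 16.4% lower). The members' share that was lower is 36.7%. Scaled to the upper quartile the calls over all genes were 2572 higher and 1968 lower, against 2104 and 2408, and the members' counts were the same. The count of members was 4 with no filter on low values and 6 with all 12 libraries in the fit. With the GC trend removed it was 16, 15 lower and 1 higher (4966 genes in all). The median difference was -0.13, against -0.0055 for all tested genes, and groups did not overlap for 17 members, against 44.7% of all genes. The authors' deposited table calls 8 of the 30, 7 lower and 1 higher, against 18.1% of its genes. By role, 4 of 8 nucleators and partners were lower (G3bp1, Caprin1, Ubap2 and Usp10), 2 of 3 helicases (Ddx3x and Ddx6), 1 of 5 translation and poly(A)-binding genes (Eif4g2), Fmr1 of the fragile X family, Atxn2l of the ataxin-2 family and 2 of 8 other RNA-binding proteins (Nufip2 and Cnbp). Hnrnpa1 and Tardbp, which fell most with radiation, were at 96.3% and 97.4% of VC after 8 Gy and did not pass (limma adjusted p = 0.465 and 0.637).

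Usp10 (ENSMUSG00000031826.20, chromosome 8, 119910360 to 119957560) is the G3bp1 partner named above, and its VC libraries read 2507, 2425 and 2499.9 before radiation and 1753, 1869 and 1738 after it, and Bub1KO libraries 1734, 2090.3 and 2036 before and 1316, 1339.8 and 1444 after. The genotypes did not overlap at either dose. Its difference after 8 Gy was -0.39 (SE 0.0632, limma adjusted p = 0.000614), and without radiation -0.35 (SE 0.0966, limma adjusted p = 0.0854). G3bp1, whose values are given above, was lower in Bub1KO at both doses, with no overlap. Its difference was -0.29 after 8 Gy (SE 0.0509, limma adjusted p = 0.00109) and -0.23 without radiation (SE 0.0768, limma adjusted p = 0.138). In the authors' deposited table the same gene has -0.23 (adjusted p = 3.71e-05) without radiation and -0.29 (adjusted p = 1.77e-07) after it.

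For Ddx6, VC libraries read 10662, 11604 and 9596 before radiation and 8454, 9191 and 8955 after it, and Bub1KO libraries 9014, 7894 and 7556 before and 8203, 6722 and 7585 after. Again the genotypes did not overlap at either dose. Its difference was -0.24 after 8 Gy (limma adjusted p = 0.0184) and -0.38 without radiation (limma adjusted p = 0.0838). For Nufip2, VC libraries read 2041, 2381 and 1789 before radiation and 1809, 2067 and 2184 after it, and Bub1KO libraries 1920.0, 1576 and 1427 before and 1693, 1328 and 1526 after. The genotypes overlapped before radiation and not after it. Its difference after 8 Gy was -0.42 (SE 0.0902, limma adjusted p = 0.00386), and without radiation -0.34 (limma adjusted p = 0.229). The call of Ddx6 after 8 Gy was lost without replicate 2 of either irradiated group, that of Caprin1 without replicate 3 of irradiated VC or replicate 1 or 2 of irradiated Bub1KO, and that of Cnbp without replicate 1 of irradiated VC. The calls of Ddx6, Caprin1, Ubap2, Ddx3x and Fmr1 were also lost both with no filter and with all 12 libraries in the fit, and those of Nufip2 (limma adjusted p = 0.12), Eif4g2 and Zfand1 with no filter. Without radiation, leaving out replicate 1 of untreated Bub1KO, the differences passed for Ddx6 (-0.46, limma adjusted p = 0.00456), Nufip2 (-0.46, limma adjusted p = 0.0156), Usp10 (-0.26, limma adjusted p = 0.0224) and G3bp1 (-0.22, limma adjusted p = 0.0364).

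Zfand1 (ENSMUSG00000039795.14, chromosome 3, 10339953 to 10351317), the clearance factor, went the other way. Its VC libraries read 223, 217 and 223 before radiation and 281, 226 and 271 after it, and Bub1KO libraries 287, 298 and 282 before and 365, 329.7 and 349.8 after. No Bub1KO library reached down to the VC range at either dose, and the Bub1KO mean was 130.8% of VC without radiation and 134.2% after it. The difference was 0.39 (SE 0.11, limma adjusted p = 0.0927) without radiation and 0.43 (SE 0.102, limma adjusted p = 0.00683) after 8 Gy. The call after 8 Gy was lost with no filter on low values (limma adjusted p = 0.0744), and the untreated difference passed in 3 alternatives (limma adjusted p 0.0199 to 0.0328), 1 of them without replicate 1 of untreated Bub1KO. With radiation it differed by 0.22 in VC (limma adjusted p = 0.0703) and rose by 0.27 in Bub1KO (limma adjusted p = 0.0373), a call lost in 7 alternative fits, 5 of them leaving out a Bub1KO library.

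In the test of whether the radiation effect differs between genotypes, 0 of 30 genes passed in limma, edgeR or DESeq2, against 0.55% of all tested genes in limma, and 1 had an unadjusted p under 0.05. That gene was Atxn2l (ENSMUSG00000032637.15, chromosome 7, 126491708 to 126503437). Its VC libraries read 2533, 2705 and 2175 before radiation and 2713, 2783 and 2477 after it, and Bub1KO libraries 2066, 3352 and 2900.1 before and 1867, 1978 and 2136 after. After 8 Gy Bub1KO was below VC with no overlap (-0.42, SE 0.0676, limma adjusted p = 0.000606, and 0.0645 with all 12 libraries in the fit), while the untreated groups overlapped (0.14, limma adjusted p = 0.707; without Bub1KO replicate 1, 0.34 and 0.0362). With radiation it differed by 0.11 in VC (limma adjusted p = 0.535) and fell by 0.45 in Bub1KO (limma adjusted p = 0.0166), a call lost with 6 libraries in the fit and without untreated Bub1KO replicate 2 or 3 or irradiated Bub1KO replicate 1 (adjusted p 0.0517 to 0.0798). The interaction was -0.56 (SE 0.199, limma adjusted p = 0.26). Without replicate 1 of untreated Bub1KO, the lowest of its group at 2066, the interaction was -0.76 (limma adjusted p = 0.00162), and with the GC trend removed it was -0.57 (limma adjusted p = 0.0295). Over all alternatives its adjusted p ran from 0.00162 to 0.514. The next smallest were Tia1 (0.18), Ybx1 (0.16) and G3bp2 (0.16), with limma adjusted p from 0.572 to 0.67.

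The genes around the granule proteins were followed in lists given by function. Of 14 genes for the eIF2 kinases, the eIF2 phosphatase and the exchange factor, radiation lowered 8 and raised 1 in VC and lowered 8 and raised 2 in Bub1KO. Over all tested genes, for this and the lists that follow, 25.8% fell and 27.6% rose in VC and 23.9% and 25.4% in Bub1KO. Ppp1r15b, the constitutive partner of the eIF2 alpha phosphatase, fell by 0.56 in VC and by 0.80 in Bub1KO, while Ppp1r15a, its stress-induced counterpart, rose by 1.34 in VC (208 ± 29.0 to 524 ± 41.5 normalized counts; limma adjusted p = 5.87e-05) and by 0.70 in Bub1KO (limma adjusted p = 0.00772). The rise of Ppp1r15a in Bub1KO was 0.41 without replicate 1 of untreated Bub1KO (limma adjusted p = 0.00759), and it then also passed between the untreated genotypes (1.13, limma adjusted p = 0.000376) and in the interaction (-0.93, limma adjusted p = 0.00167). With the GC trend removed it also passed between the untreated genotypes (0.89, limma adjusted p = 0.00661). Eif2b1, an exchange factor subunit, fell by 0.51 in Bub1KO (limma adjusted p = 1.38e-05). Eif2ak2, the kinase PKR that senses double-stranded RNA, was higher in irradiated Bub1KO than in irradiated VC by 0.41 (2426 ± 266 against 1813 ± 53.1; limma adjusted p = 0.00116), and Eif2s2, the beta subunit of eIF2, by 0.31 (limma adjusted p = 0.00602).

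Of 15 processing body genes, 10 fell and 1 rose in VC and 8 fell in Bub1KO. Limd1 fell by 0.85 and 0.59, Tnrc6a, a scaffold of microRNA silencing, by 0.48 in VC, and Patl1, a decapping activator, by 0.48 in Bub1KO. Of 32 other granule RNA-binding proteins, 23 fell and 3 rose in VC and 22 fell and 3 rose in Bub1KO. Among those that rose in each genotype is Igf2bp2, which reached 10 normalized counts in the irradiated libraries alone. Hnrnpa3 (-1.11) and Hnrnpa2b1 (-1.04), relatives of Hnrnpa1, had the smallest p-values in VC, and Igf2bp1 (-0.82) in Bub1KO. Of 18 other eIF4F and eIF3 subunits, 10 fell in VC, and 8 fell and 2 rose in Bub1KO. Eif4a1, the eIF4F helicase, fell by 0.72 and 0.61, Eif3m by 0.55 in VC, and Eif4e, the cap-binding protein, by 0.71 in Bub1KO.

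Of 11 granule disassembly genes listed, 10 were tested: 1 fell and 2 rose in VC and 1 fell and 3 rose in Bub1KO. That is 3 and 4 of 10 called, where 53.4% and 49.4% of all tested genes were called. Hspa8, the constitutive Hsp70 chaperone, fell by 0.63 in VC. Hspb8, a small heat shock protein that guards granules against misfolded protein, was at very low levels (means of 1.54 and 11.7 normalized counts in VC and 0.899 and 7.56 in Bub1KO, before and after radiation). It passed the filter on low values through 3 irradiated libraries alone, so its place among the genes that rose in each genotype is no support for a change. Ulk1, a kinase that activates Vcp, rose by 0.39 in Bub1KO (limma adjusted p = 0.0207), but by the fit without replicate 1 of untreated Bub1KO the difference was 0.21 (limma adjusted p = 0.0557), and with the GC trend removed it was 0.11 (limma adjusted p = 0.282), as the VC difference was then 0.024 (limma adjusted p = 0.818).

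Between genotypes without radiation, 0 genes of these 5 lists passed in limma or edgeR, with 0 to 9 per list at an unadjusted p under 0.05, and DESeq2 called 1, an eIF2 list gene. Without replicate 1 of untreated Bub1KO the calls were 2 of 14, 5 of 15, 1 of 10, 12 of 32 and 2 of 18, in the order eIF2, processing bodies, disassembly, other RNA-binding proteins and initiation subunits. Under that setting 18.6% of all genes were called. After 8 Gy, with all libraries, the calls were 4, 0, 1, 13 and 5 in the same order, against 30.7% of all genes. Among the 13 RNA-binding proteins 11 were lower, with Igf2bp1 lower by -0.53 and its relative Igf2bp3 higher by 0.43. Trim21, a ubiquitin ligase that acts on G3bp1, was higher in Bub1KO by 0.53 (118 ± 6.40 to 170.5 ± 9.87, limma adjusted p = 0.00388). Of the initiation subunits, Eif4h (-0.38) and Eif3g (-0.31) were lower, while Eif3f, Eif3i and Eif3k were called higher. For the processing body genes edgeR and DESeq2 also called 0 of 15, 2 had an unadjusted p under 0.05, and with the GC trend removed 2 were called lower (Dcp1a and Eif4enif1). In the interaction 0 genes of these lists passed in limma, edgeR or DESeq2, with 1 to 4 per list at an unadjusted p under 0.05. Without replicate 1 of untreated Bub1KO limma called 2, 4, 1, 0 and 2 there, in the same order, against 9.83% of all genes under that setting.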

How the data were processed

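RNA from 12 B16F10 libraries was measured. Trim Galore, cutadapt, STAR, SAMtools and HTSeq with GRCm38.p6 (mm10) are named in the submitters' processing notes, without versions. The authors deposited 2 tables of 55421 genes; per the file headers and values their sample columns hold a signal, read counts divided by 1 size factor per library (0.775 to 1.41), shared by both tables. Whole reads came back for 100.0% of values (tolerance 0.01). Beside these stand the authors' deposited log2 fold changes (VC over Bub1KO), a test score and p-values, printed with the sign turned to Bub1KO minus VC.

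Values were tested with limma-trend (limma 3.58.1, R 4.3.3) on log2(value + 1), which understates changes of low genes, for genes with at least 10 in at least 3 libraries, Benjamini-Hochberg adjusted over all 14721. Genotypes were compared on 6 libraries each, and radiation and interaction on all 12. edgeR 4.0.16 and DESeq2 1.42.0 on recovered reads were alternatives (642 and 852 genes between genotypes without radiation, 4515 and 4057 after 8 Gy), as was the removal, per library, of a loess trend on the GC content of the longest transcript, and the code was tested on simulated data. Positions and lengths are from GENCODE M21 (55240 identifiers matched). Near-identical copies share at least 200 bases at 95% identity. The members and lists were chosen with earlier results of these data known. Named genes follow a rule: per-library values for the 4 smallest p-values per comparison, and up to 2 genes per list and comparison. Of the list genes this rule names, 1 is not reported here.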

Additional observations from a re-analysis of the deposited data

How the results depend on the processing

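The counts of members that passed depended on a few choices. Between genotypes without radiation (0) it was 1 with no filter, 1 with DESeq2, 5 with the GC trend removed, 4 with all 12 libraries in the fit, and 0 to 11 leaving out each library, the 11 without replicate 1 of untreated Bub1KO. After 8 Gy (12) it was 4 with no filter, 6 with all 12 libraries, 13 with DESeq2 and 16 with the GC trend removed. Leaving out a library gave 10 to 15 there. The interaction (0) gave 1 with the GC trend removed and 0 to 1 leaving out a library. The radiation counts were 19 to 25 in VC (23) and 20 to 24 in Bub1KO (24) leaving out a library. Over all genes, calls between genotypes without radiation were 591, against 329 with no filter, 312 with the replicate block, 1743 with the GC trend removed, 1769 with all 12 libraries and 172 to 2736 leaving out a library. After 8 Gy they were 4512, against 2062 with no filter and 2105 with all 12 libraries. For the interaction they were 81, against 283 with DESeq2, 448 with the GC trend removed, 47 with the block and 33 to 1447 leaving out a library. The cause was not tested.

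Replicate numbers did not pair the samples: deviations of same-numbered libraries had correlations from -0.193 to 0.196, and 1 of 18 pairs was over 0.1. With the replicate block, 0, 12, 23, 22 and 0 genes passed, in the order genotype without and after radiation, radiation in VC and in Bub1KO, and interaction.

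With the GC trend removed, 2 paralogue ratios reversed with radiation, Fxr1 over Fxr2 (0.055) and Eif4g1 over Eif4g2 (-0.16), and the cause was not tested.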
